A study of Mus musculus with 6 samples.

Results

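Long intergenic noncoding RNAs (lincRNAs) are transcripts made from stretches of the genome between protein-coding genes. They are spliced from exons as mRNAs are, but are not translated, and many are low in level and made in few tissues. Some lincRNAs act in the nucleus on chromatin and transcription and others in the cytoplasm, while most have no known role. A transcript is read from a single strand of the DNA, so RNA of the opposite strand of the same exon needs a probe of its own.

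The probes described here carry the name MM9LINCRNAEXON with a number and a strand sign, and stand for exons of lincRNAs on the mouse genome build mm9. They were the noncontrol probes of the Arraystar Mouse LncRNA Microarray v2.0 whose names began with MM9LINCRNAEXON and ended in _P1, which were 3457 of its 59729 probes. Of these, 1728 were on the + strand and 1729 on the - strand, each with 1 spot, and none was saturated on any array. The 1729 exon numbers ran from 10002 to 12127, and 1728 of them had a probe on each strand. Exon 10195 had a single probe. Coordinates on mm9 were at hand for 662 of the probes, those that the study lists as changed, and along each chromosome these numbers were in the order of the starts. All 66 exons listed on both strands had the same start and end on both. The listed exons were 60 to 9426 nt long with a median of 467 nt. Neither the probe names nor the listings used here pair these exons with a function.

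The RNA came from male C57BL/6J mice given isoproterenol, an agonist of β-adrenergic receptors, under the skin at 40 mg/kg/day for 1 week to induce heart failure (HF), and from control mice injected with saline. Heart, whole blood and plasma were taken from both groups, which gave 6 conditions of 1 array each. The age of the mice is not given in the sources used here. Each array held RNA mixed from 5 mice according to the microarray methods, while the extraction methods give 10 mice for plasma. The animal-to-animal spread was therefore not measured, and no test across mice was possible. Blood was drawn by removal of an eyeball, and the plasma was spun and passed through a filter before extraction.

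Levels below are log2 normalized intensities, and a difference between HF and control is a log2 fold change (HF minus control). A probe was counted as detected where its spot was flagged well above background and was not flagged as an outlier. A probe detected on both arrays of a tissue was called higher or lower in HF where the difference was at least 2-fold. The error beside a fold change combines the errors that the image software gave for both spots. It covers the spot and its background within an array, not the spread between mice.

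Several facts of the arrays bear on every result. Both heart arrays, HF whole blood and HF plasma were read in the same scan, and control whole blood and control plasma in another, so that scan and HF cannot be told apart in whole blood and plasma. Of 1200 spots of 20 negative control probes, 0.50% were detected in HF heart and 2.33% in control heart, 0.583% in HF whole blood and 2.92% in control whole blood, and 12.4% in HF plasma beside 4.33% in control plasma. The lowest value was shared by 52.6% of the lincRNA exon probes in control whole blood and by 42.4% in HF plasma, and values there have no order. Of 10 listed cardiomyocyte mRNAs, 6 could be matched to probes, and all 6 were well above background on both heart arrays and in HF whole blood. In control whole blood 1 of them was, in control plasma 2 and in HF plasma 2. Myh6 went against its role, with levels of 10.68 to 10.88 in heart and of 14.36 to 14.71 in blood and plasma, whereas Nppa, a natriuretic peptide of cardiomyocytes, had 13.91 and 16.65 in control and HF heart and 15.52 in HF whole blood, and was not well above background on the other arrays. The 4 matched erythroid mRNAs of 7 had levels of 13.05 to 17.58 in control plasma and of 3.02 to 13.49 in HF plasma, where Alas2 was not well above background. The 4 neutrophil mRNAs of 6 were well above background on all HF arrays, at 10.83 to 13.53 in HF whole blood against 2.65 to 9.39 in control whole blood. Cd79b, a B cell mRNA, went from 10.34 to 6.21 between control and HF whole blood. Of 5 fibroblast mRNAs 4 were matched, and HF whole blood had all 4 well above background where control whole blood had 1. The 2 platelet mRNAs of 5 had 8.66 and 13.22 in control plasma and 7.12 and 6.01 in HF plasma, and the only matched T cell mRNA of 4 had 9.30 and 9.98 in control and HF whole blood. Of the 4 eye mRNAs only Cryab was matched, and its highest levels were in heart, at 8.56 and 9.0 in control and HF. In whole blood it had 5.29 in control, not well above background, and 5.36 in HF, well above background. In plasma it was not well above background. None of the 4 hepatocyte mRNAs was matched. In mixed samples, fewer cells of a type and less RNA per cell cannot be told apart, and the part of these cell types in the results was not tested.

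The lincRNA exons were detected less often than the array as a whole in heart, and about as often in HF plasma. In control heart 1337 of the 3457 probes (38.7%) were detected and in HF heart 855 (24.7%), against 47.3% and 35.1% of all probes. In whole blood 788 (22.8%) were detected in control and 905 (26.2%) in HF, against 25.0% and 29.8% of all probes. In plasma 1064 (30.8%) were detected in control and 1020 (29.5%) in HF, against 33.5% and 29.0% of all probes. The detected probes had levels with a median of 5.58 and 6.31 in control and HF heart, 7.69 and 7.39 in whole blood, and 6.97 and 7.64 in plasma. The share in HF plasma stood beside the highest share of negative control spots, and the part of that background in it was not tested. HF plasma was the only array on which the share of lincRNA exons was above that of all probes.

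**Figure D1:**
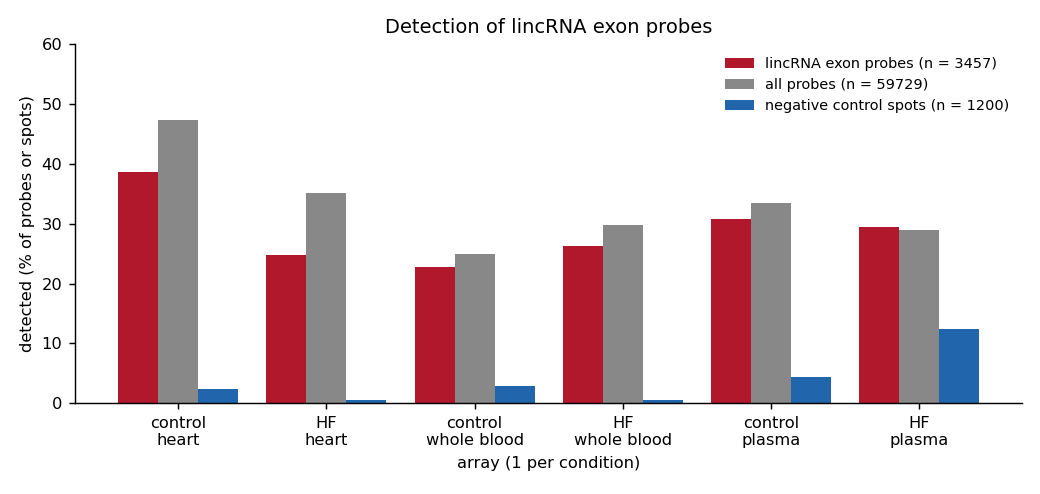
Share of probes detected on each of the 6 arrays, in percent, for the 3457 lincRNA exon probes, all 59729 probes and the 1200 negative control spots, with 1 array per condition and no error bars. The lincRNA exons stand furthest below all probes on the heart arrays, at 24.7% against 35.1% in HF heart and 38.7% against 47.3% in control heart. HF plasma has the highest share of negative control spots, 12.4%.

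Counted over the 6 arrays, 1586 lincRNA exon probes (45.9%) were detected on none and 401 (11.6%) on all 6. Over all probes these shares were 39.9% and 12.6%. Another 530 probes were detected on a single array. Of those, 183 were seen in HF plasma, 173 in control heart, 64 in HF whole blood, 57 in control plasma, 33 in HF heart and 20 in control whole blood. Single detections were thus most common on the array with most detected negative control spots and on the array with most detected probes. In all, 358 probes were detected in heart and not in blood or plasma, 488 in blood or plasma and not in heart, and 1025 in both. For single detections and for this split, shares over all probes are not given here. These counts therefore do not set the lincRNA exons apart from the array.

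In the heart, more lincRNA exons were lower than higher in HF. Of the 809 probes with a detected spot in both hearts, 70 (8.65%) were higher in HF by 2-fold or more and 187 (23.1%) lower. Among the 20065 probes of the whole array detected on both, 13.9% were higher and 12.9% lower. The median log2 fold change of the lincRNA exons was -0.36, beside 0.02 over all detected probes, with the middle of the distribution running from -0.95 to 0.30 between its quartiles. Between the hearts, another 528 lincRNA exons (15.3%) were detected in control alone and 46 (1.33%) in HF alone, near the 13.7% and 1.46% of all probes. The lowest normalized level of any detected probe was 3.56 in control heart and 4.72 in HF heart. Before normalization the HF heart array was dimmer, with a median processed signal of 8.42 against 21.9 in control heart. The part of this in the counts was not tested. With another background correction (normexp), 27 were higher and 92 lower. At a threshold of 4-fold the counts were 13 and 12. The shares over all probes are not given here for either. With normexp the median log2 fold change in heart was -0.19 for the lincRNA exons and 0.01 over all detected probes.

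Among lincRNA exons detected on both heart arrays, 4 probes had the largest rises in HF heart. MM9LINCRNAEXON11765+, on chromosome 11 of mm9 from 35525042 to 35525473, had a level of 8.50 in control heart, 11.76 in HF heart and 7.32 in HF whole blood, and was not well above background on the other arrays. Its level was higher in HF heart by a log2 fold change of 3.26 with an error of 0.20. MM9LINCRNAEXON11355-, on chromosome 15 from 82037383 to 82038464, had 5.61 and 8.51 in control and HF heart, a log2 fold change of 2.90 with an error of 0.21, and was otherwise detected in control plasma alone at 5.50. For both, HF heart had the highest level of the 6 arrays. MM9LINCRNAEXON11227+, on chromosome 17 from 66821315 to 66821736, had 5.35 and 8.08 in heart and 5.67 in HF whole blood, with a log2 fold change in heart of 2.74 and an error of 0.22. MM9LINCRNAEXON11327- had 7.87 and 10.37 in control and HF heart, 6.05 and 6.25 in whole blood and 4.89 in control plasma, with a log2 fold change in heart of 2.50 and an error of 0.20. The opposite strands of all 4 were not well above background on either heart array.

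The 4 largest falls in HF heart among exons detected on both arrays were all on the + strand. MM9LINCRNAEXON11837+, on chromosome 11 from 100222968 to 100223309, had a level of 8.34 in control heart, 5.36 in HF heart and 7.32 in HF plasma, and was not well above background elsewhere. Its log2 fold change in heart was -2.98 with an error of 0.29, while the opposite strand, MM9LINCRNAEXON11837-, had 16.54 and 15.68 in control and HF heart, a log2 fold change of -0.85. MM9LINCRNAEXON11792+ had 13.73 and 10.94 in heart, 12.54 and 14.43 in whole blood, and 15.48 and 16.11 in plasma, each as control and HF. It was lower in HF heart by a log2 fold change of -2.79 and higher in HF whole blood by 1.89, with an error of 0.20 in each. Scaled by the 75th percentile, the value in whole blood was 0.50, under 2-fold. MM9LINCRNAEXON10032+, on chromosome X from 91000498 to 91004373, had a log2 fold change of -2.55 in heart with an error of 0.22, and is described with the exons that changed in all 3 tissues. MM9LINCRNAEXON11466+ had 8.19 and 5.76 in heart, 8.87 and 7.58 in whole blood, and 9.84 and 10.47 in plasma, with a log2 fold change in heart of -2.43 and an error of 0.24. Over the detected probes of each strand, 106 of 365 on the + strand (29.0%) were lower in HF heart against 81 of 444 on the - strand (18.2%), with median log2 fold changes of -0.57 and -0.16.

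In whole blood the lincRNA exons shifted about as the rest of the array did. Of the 626 probes detected on both whole blood arrays, 125 (20.0%) were higher in HF and 179 (28.6%) lower. Among the 11938 probes of the whole array detected on both, 21.4% were higher and 26.8% lower. The medians of the log2 fold changes were -0.16 for the lincRNA exons and -0.13 for all detected probes. Scaled by the 75th percentile of each array in place of quantile normalization, 95 were higher and 223 lower, and the share of the changed probes that were higher went from 41.1% to 29.9%. Between the whole blood arrays, detection in HF alone was found for 279 lincRNA exons (8.07%) and in control alone for 162 (4.69%), beside 9.78% and 5.0% of all probes.

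Among exons detected on both whole blood arrays, the rises in HF reached a log2 fold change of 4.89. MM9LINCRNAEXON10839+, in an exon of 3215 nt, had levels of 6.77 and 11.66 in control and HF whole blood, 4.55 and 5.28 in control and HF heart, and 6.52 in control plasma, and was not well above background in HF plasma. Its log2 fold change of 4.89 in whole blood had an error of 0.26, and the opposite strand was not well above background on any array. MM9LINCRNAEXON10329- had 6.14 and 10.67 in whole blood, 5.06 and 5.37 in heart, and 6.22 and 8.05 in plasma, with a log2 fold change in whole blood of 4.52 and an error of 0.31. In both, the level in HF whole blood was the highest of the 6 arrays. MM9LINCRNAEXON10239+ had 9.16 and 13.25 in whole blood and 9.15 and 7.20 in plasma, and was not well above background in heart. Its log2 fold change was 4.08 in whole blood and -1.95 in plasma, with errors of 0.18 and 0.22. MM9LINCRNAEXON10544- had 6.02 and 9.90 in whole blood, 7.92 and 7.97 in heart, and 7.03 and 7.62 in plasma, and its log2 fold change in whole blood was 3.88 with an error of 0.32.

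The 4 largest falls in HF whole blood, again among exons detected on both arrays, were those of MM9LINCRNAEXON11972+, MM9LINCRNAEXON11022+, MM9LINCRNAEXON11019+ and MM9LINCRNAEXON11201+. MM9LINCRNAEXON11972+, on chromosome 10 from 109652420 to 109652627, had 12.20 and 7.49 in control and HF whole blood, 11.69 and 12.57 in plasma and 6.10 in control heart, and was not well above background in HF heart. Its log2 fold change in whole blood was -4.72 with an error of 0.22, against 0.88 in plasma. MM9LINCRNAEXON11201+, on chromosome 17 from 17659848 to 17662511, had 11.88 and 7.85 in whole blood, 12.09 and 12.07 in plasma, and 8.28 and 6.51 in heart, with a log2 fold change in whole blood of -4.02 and an error of 0.21. In both exons the HF plasma array stood near or above the control level while HF whole blood stood far below it. Exons 11019 and 11022 lie close together on chromosome 2 and are described with their neighbours.

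In plasma the changes were wider than in heart, and more lincRNA exons were higher than lower in HF. Of the 718 probes detected on both plasma arrays, 279 (38.9%) were higher and 125 (17.4%) lower. Among the 12377 probes of the whole array detected on both, 32.1% were higher and 25.6% lower. The median log2 fold change was 0.52 for the lincRNA exons and 0.21 for all detected probes. Between strands, 154 of 353 probes on the - strand (43.6%) and 125 of 365 on the + strand (34.2%) were higher. Between the plasma arrays, detection in HF alone was found for 302 lincRNA exons (8.74%) and in control alone for 346 (10%), beside 8.31% and 12.8% of all probes.

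**Figure D2:**
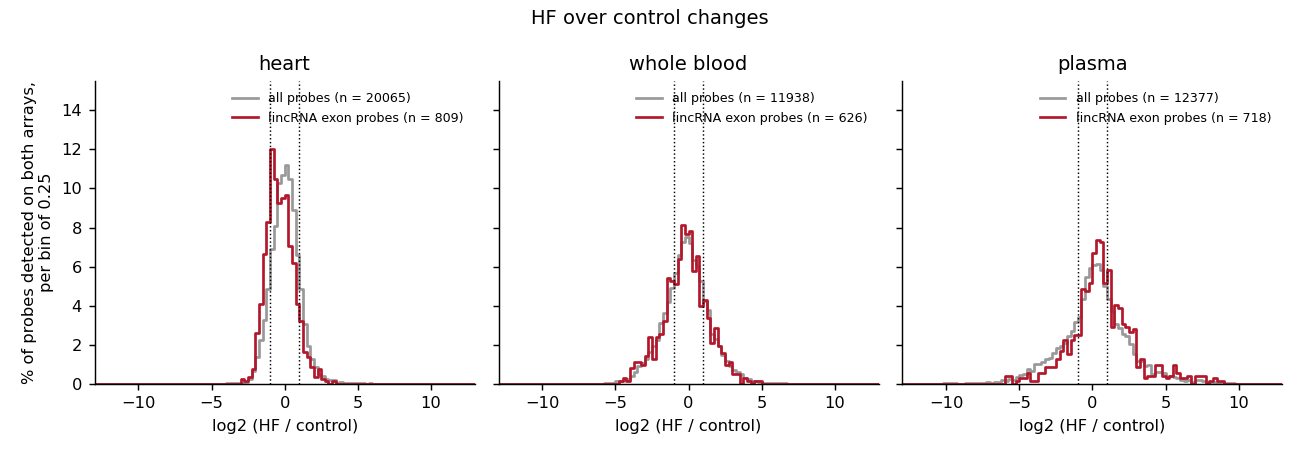
Distribution of log2 fold changes (HF over control) in heart, whole blood and plasma, as the percent of probes in bins of 0.25, for lincRNA exon probes (red) and all probes (grey) detected on both arrays of the tissue, with dotted lines at a 2-fold difference. The red line lies to the left of the grey in heart (medians -0.36 and 0.02), beside it in whole blood (-0.16 and -0.13) and to the right in plasma (0.52 and 0.21).

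The 4 largest rises among exons detected on both plasma arrays were on the - strand. MM9LINCRNAEXON10234+, on the + strand, went from 7.60 in control plasma to 16.03 in HF plasma, but its spot in HF plasma was flagged as an outlier and did not count as detected (it is named here after its values were seen). MM9LINCRNAEXON10353-, on chromosome 7 from 112519740 to 112520990, had a level of 6.39 in control plasma and 15.38 in HF plasma, 8.25 and 8.38 in control and HF heart, and 5.59 in HF whole blood, and was not well above background in control whole blood. Its log2 fold change in plasma was 8.99 with an error of 0.24. MM9LINCRNAEXON11817-, on chromosome 11 from 96073597 to 96073934, had 8.25 and 16.87 in plasma, 8.13 and 7.19 in whole blood, and 5.13 and 4.86 in heart, a log2 fold change in plasma of 8.63 with an error of 0.21. In each of them, HF plasma stood apart from all the other arrays. MM9LINCRNAEXON10819-, on chromosome 3 from 36341494 to 36341833, had 7.52 and 15.94 in plasma, 6.94 and 7.46 in whole blood, and 5.0 and 6.24 in heart, and its log2 fold change was 8.42 in plasma. MM9LINCRNAEXON10013-, on chromosome X from 34382941 to 34383266, had 8.55 and 16.81 in plasma, 8.15 and 8.75 in whole blood, and 5.81 and 5.79 in heart, and its log2 fold change was 8.26 in plasma. The errors of both were 0.21. The opposite strands reached no such level in HF plasma, though some were higher there. MM9LINCRNAEXON10353+ had 5.63 and 7.61 in control and HF plasma, a log2 fold change of 1.98. MM9LINCRNAEXON11817+ had 6.65 in HF plasma and was not well above background in control plasma, so it was at least 4.05-fold higher in HF. MM9LINCRNAEXON10819+ was detected in control plasma alone, at 5.35, and MM9LINCRNAEXON10013+ was not well above background in either.

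The 4 largest falls among exons detected on both plasma arrays started from levels of 11.54 to 11.89 in control plasma. MM9LINCRNAEXON11766+, on chromosome 11 from 48607830 to 48608627, had a level of 11.54 in control plasma and 5.69 in HF plasma, 11.60 and 11.32 in control and HF whole blood, and 7.93 and 7.30 in heart. Its log2 fold change in plasma was -5.85 with an error of 0.27. MM9LINCRNAEXON12109-, on chromosome 1 from 172123554 to 172127468, had 11.88 and 6.10 in plasma, 12.12 and 9.35 in whole blood, and 11.47 and 11.68 in heart, with log2 fold changes of -5.78 in plasma and -2.77 in whole blood and errors of 0.27 and 0.21. Both were slightly higher in control whole blood than in control plasma. MM9LINCRNAEXON11901-, on chromosome 10 from 60481790 to 60482017, had 11.75 and 6.07 in plasma and 8.32 and 11.40 in whole blood, and was not well above background in heart. It was lower in HF plasma by a log2 fold change of -5.68 and higher in HF whole blood by 3.08, with errors of 0.28 and 0.21. MM9LINCRNAEXON11022+ completed the group with -5.83.

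Where only a single array of a tissue detected a probe, the difference has a lower bound, taken against the dim spot's own level or the lowest level among detected probes of that array, whichever was higher. In plasma 296 lincRNA exons were detected in HF and not well above background in control, and 232 of them were at least 2-fold higher by this bound (84.0% of all such probes were). Of 326 detected in control plasma and not well above background in HF plasma, 116 were at least 2-fold lower (40.4% of all such probes). In whole blood the same counts were 77 of 264 higher (30.2% of all such probes) and 107 of 162 lower (66.6% of all such probes). In heart no count is given for probes seen in HF alone. After normalization, the lowest detected level of HF heart was itself more than 2-fold above that of control heart. Of 527 seen in control heart alone, 27 passed (4.83% of all such probes). The shares for the lincRNA exons were therefore near those of the whole array in whole blood and heart, and somewhat lower in plasma.

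The exons with the largest of these bounds were named after their values were seen. MM9LINCRNAEXON11143- had a level of 14.44 in HF plasma and was not well above background on any other array, which put HF plasma at least 894-fold above its control. MM9LINCRNAEXON10883- was alike, with 13.87 in HF plasma, no signal above background on the other 5 arrays and a bound of 601-fold. MM9LINCRNAEXON10147+ had 13.95 in HF whole blood, was not well above background in control whole blood or HF plasma, and had 5.26 and 4.86 in heart and 5.02 in control plasma, which put HF whole blood at least 289-fold above its control. In heart, MM9LINCRNAEXON11026+ had 10.25 in HF and no signal above background elsewhere, a bound of 103-fold. MM9LINCRNAEXON12112- had 10.21 in HF heart and 5.23 in control plasma alone besides, with a bound of 101-fold in heart. Each of these probes has a single spot per array, and a repeat spot to set beside it was not on the array.

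Detection in the heart went with a gain of detection in HF whole blood, among the lincRNA exons as over the whole array. Of 301 lincRNA exons detected on both heart arrays and not in control whole blood, 97 (32.2%) were detected in HF whole blood, against 108 of 1963 (5.50%) among those well above background on neither heart array. Over all probes these shares were 33.9% and 5.21%. In the other direction, 35 of 239 (14.6%) with heart signal and not detected in HF whole blood were detected in control whole blood, against 68 of 1923 (3.54%) without heart signal, and over all probes the shares were 15.1% and 3.54%. In plasma, more exons with heart signal were detected in control alone than in HF alone, 135 against 34. The shares in each direction are taken over different probes, so they are not rates of gain and loss. Of 218 with heart signal and not detected in control plasma, 34 (15.6%) were detected in HF plasma, against 203 of 1871 (10.8%) without heart signal, with 18.9% and 9.62% over all probes. Of 319 with heart signal and not detected in HF plasma, 135 (42.3%) were detected in control plasma, against 118 of 1786 (6.61%) without it, with 43.4% and 7.34% over all probes. The shares of the lincRNA exons were thus near those of the array. HF whole blood was also the only array outside the heart on which all 6 matched cardiomyocyte mRNAs were well above background, and the part of heart RNA in these shares was not tested.

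Where an exon with both strands on the array was detected at all, it was mostly on a single strand. Of the 1728 exons, both strands were detected in 271 and 103 in control and HF heart, in 127 and 123 in whole blood, and in 213 and 182 in plasma. These were 13.7% to 25.4% of the exons with any strand detected. In heart the strands were nearly unrelated, since the - strand was detected in 42.9% of the exons whose + strand was detected in control heart and in 39.6% of the rest, and in 26.8% and 27.3% in HF heart. In HF whole blood these shares were 25.5% and 24.1%. On the other 3 arrays the - strand was found more often beside a detected + strand, in 31.8% against 19.7% in control whole blood, 39.9% against 26.5% in control plasma and 37.8% against 28.6% in HF plasma.

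**Figure D3:**
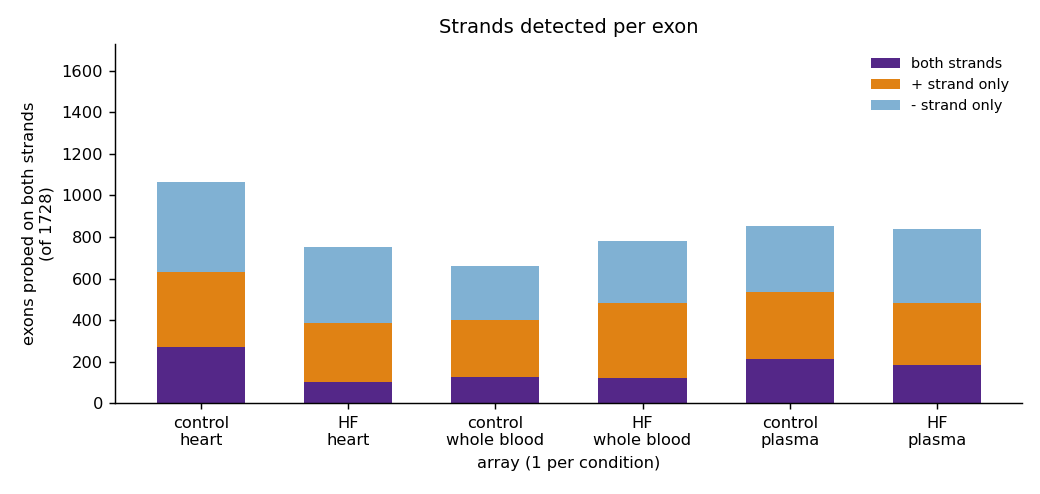
Number of the 1728 exons probed on both strands that were detected on both strands, on the + strand only or on the - strand only, stacked for each of the 6 arrays. A single strand makes up most of each bar, and the part with both strands is largest in control heart (271 exons) and smallest in HF heart (103).

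Over all arrays, 378 of these exons had neither strand detected anywhere, 359 had the + strand alone, 470 the - strand alone and 521 both. Among the last, 432 had both on at least 1 array and 89 never on the same array. On all 6 arrays, 26 exons had both strands detected, 74 had the + strand and never the other, and 86 the - strand and never the other. Where both arrays of a tissue detected a single strand, it was mostly the same strand. Exons that lost the strand in HF, or gained the other beside it, are not in the counts that follow. In control heart, 361 exons had the + strand alone and 434 the - strand alone. Of 474 exons with a single strand on each heart array, 470 had the same strand on both. In whole blood this was 394 of 401, and in plasma 359 of 381, so that 4, 7 and 22 exons switched strand.

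Where both strands could be compared, their changes in HF bore little relation to each other. In heart 94 exons had both strands detected on both arrays, and 11 had both strands at least 2-fold changed in the same direction and 2 in opposite directions. In whole blood 71 exons gave 6 and 3, and in plasma 117 exons gave 17 and 15. Spearman's rho between the log2 fold changes of the strands was 0.06 in heart, 0.15 in whole blood and -0.04 in plasma, as a description across exons that share their arrays. The median distance between the strands on the log2 scale was 0.91, 1.30 and 1.78. A change of a single strand only was the most frequent outcome, with 43 of 94 exons in heart, 39 of 71 in whole blood and 61 of 117 in plasma.

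**Figure D4:**
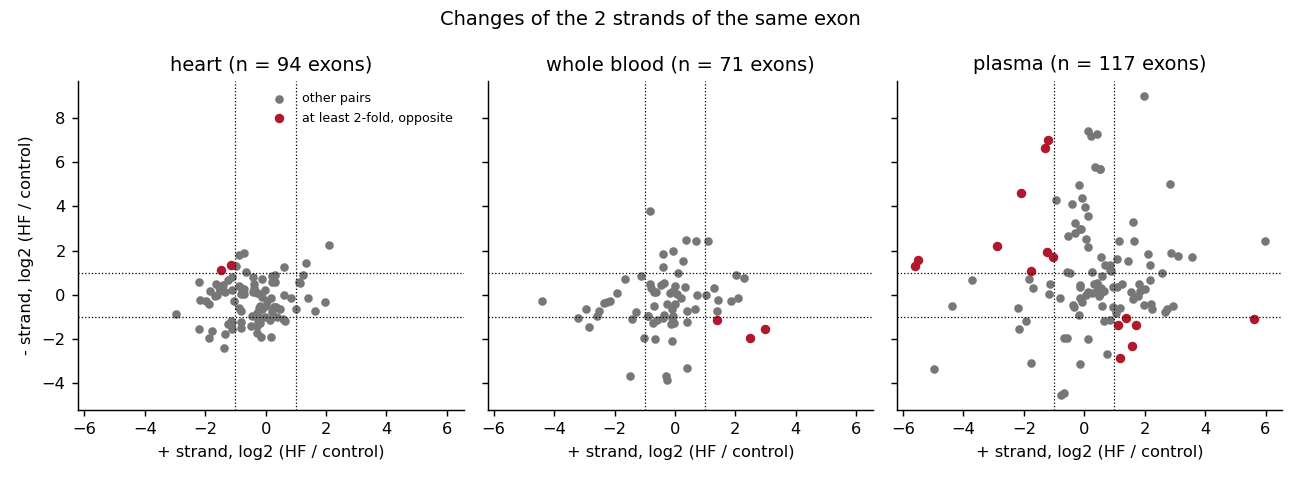
Log2 fold change (HF over control) of the + strand against that of the - strand of the same exon, in heart (94 exons), whole blood (71) and plasma (117), with dotted lines at a 2-fold difference and red points for exons whose strands changed at least 2-fold in opposite directions. The points show no common slope, and the red points number 2, 3 and 15.

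In heart the opposite changes were small. In MM9LINCRNAEXON10974+, in an exon of 96 nt, the level was 8.53 in control heart and 7.04 in HF heart, a log2 fold change of -1.49, while MM9LINCRNAEXON10974- had 12.77 and 13.89, a log2 fold change of 1.12. The - strand of this exon had 12.48 and 11.45 in control and HF whole blood and 12.67 and 8.15 in plasma, and its log2 fold change in plasma was -4.52. Exon 11446 was the other case, with MM9LINCRNAEXON11446+ at 6.89 and 5.76 (log2 fold change -1.14) and MM9LINCRNAEXON11446- at 5.22 and 6.57 (1.35) in heart. The errors of these fold changes in heart were 0.20 to 0.25. With normexp, the strands of exon 11446 had -0.53 and 0.56 in heart, and neither passed 2-fold. The - strand of exon 11446 was not well above background in blood or plasma, whereas the + strand was detected on all 6 arrays and had 7.34 and 8.57 in control and HF plasma.

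In whole blood 3 exons went in opposite directions, each with the + strand higher in HF. MM9LINCRNAEXON12061+ had a level of 5.88 in control and 8.87 in HF whole blood (log2 fold change 2.99, error 0.34), and MM9LINCRNAEXON12061- had 10.28 and 8.74 (-1.54, error 0.21). In plasma the - strand of this 70 nt exon went from 9.66 in control to 15.31 in HF, a log2 fold change of 5.65, while the + strand was detected in control plasma alone at 5.60. The - strand of this exon was thus lower in HF whole blood and higher in HF plasma. MM9LINCRNAEXON11731+ had 7.33 and 9.81 in whole blood (2.49) against 12.12 and 10.16 (-1.96) for MM9LINCRNAEXON11731-. MM9LINCRNAEXON11364+ had 12.60 and 13.99 (1.39) against 8.27 and 7.12 (-1.15) for MM9LINCRNAEXON11364-. The + strand of exon 11364 was also lower in HF heart, from 12.65 to 11.10, and higher in HF plasma, from 12.75 to 14.29. Its value in whole blood was 0.06 when scaled by the 75th percentile, and the - strand had -0.95 with normexp, so that the opposite call for this exon was lost under both.

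In plasma the opposite changes were the largest, and 9 of the 15 exons had the - strand higher and the + strand lower. MM9LINCRNAEXON10678-, on chromosome 4 from 88584092 to 88584455, had a level of 7.23 in control plasma and 14.25 in HF plasma, a log2 fold change of 7.01 with an error of 0.21, while MM9LINCRNAEXON10678+ had 6.72 and 5.53, a log2 fold change of -1.19 with an error of 0.34. With normexp the + strand had -0.86, which is under 2-fold. MM9LINCRNAEXON11743-, on chromosome 11 from 6761987 to 6762066, had 6.35 and 12.97 (log2 fold change 6.62), and MM9LINCRNAEXON11743+ had 8.94 and 7.63 (-1.31). In both, whole blood showed no such step on either strand, with log2 fold changes there between -0.35 and 0.54. In exon 11749 the + strand carried the larger change, from 14.11 to 8.60 in MM9LINCRNAEXON11749+ (log2 fold change -5.51), against 6.12 and 7.71 in MM9LINCRNAEXON11749- (1.59). The + strand of that exon had 14.19 and 14.10 in control and HF whole blood and 8.67 and 8.13 in heart, so HF plasma stood apart from the other blood arrays.

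Exons with consecutive numbers on the same strand seldom changed together. Of the 1729 numbers, 1533 had the next number on the array, and 105 of 173 neighbouring listed exons lay under 10000 bp apart, with a median gap of 5327 bp. In heart 215 neighbouring probes of the same strand were both detected on both arrays, and 14 of these pairs were changed at least 2-fold in the same direction and 5 in opposite directions. In whole blood 118 pairs gave 17 and 9, and in plasma 140 pairs gave 25 and 9. Spearman's rho between neighbours was 0.12 in heart, 0.05 in whole blood and 0.15 in plasma, as a description. Most runs of exons changed in the same direction were 2 exons long, in 14 of 14 cases in heart, 14 of 15 in whole blood and 23 of 24 in plasma.

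The longest run was in whole blood, on the + strand of chromosome 2. It held exons 11017, 11018, 11019 and 11020, and the numbers on the array go on without a gap to exon 11023, so that 7 exons span 11208 bp of mm9 from 119422041 to 119433248. MM9LINCRNAEXON11017+ had levels of 10.35 and 8.34 in control and HF whole blood, 7.05 and 6.73 in heart and 9.80 in control plasma, and was not well above background in HF plasma. The study lists the opposite strand, MM9LINCRNAEXON11017-, as antisense with an associated gene, and as lower in HF in all 3 tissues. MM9LINCRNAEXON11018+ had 14.81 and 12.19 in whole blood, 10.50 and 9.66 in heart and 14.91 in control plasma, and was not well above background in HF plasma, where it was at least 741-fold lower. MM9LINCRNAEXON11019+ had 10.44 and 6.08 in whole blood, 8.18 and 7.85 in heart, and 9.92 and 7.79 in plasma. In each of these exons control whole blood and control plasma were alike and both HF blood arrays were lower. MM9LINCRNAEXON11020+ had 8.28 and 5.70 in whole blood, 8.31 and 6.09 in heart and 7.97 in control plasma. MM9LINCRNAEXON11022+ had 11.61 and 7.19 in whole blood, 10.37 and 10.18 in heart, and 11.89 and 6.06 in plasma. The log2 fold changes in whole blood were -2.02, -2.63, -4.36, -2.58 and -4.41 for exons 11017, 11018, 11019, 11020 and 11022, with errors of 0.20 to 0.30.

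The remaining exons of this stretch were named after their values were seen and did not enter the run because a spot failed the detection rule. MM9LINCRNAEXON11021+ had 9.89 in control whole blood and 10.15 in control plasma and was not well above background in HF whole blood or HF plasma, so it was at least 25.9-fold and 27.4-fold lower there. MM9LINCRNAEXON11023+ had 13.47 in control plasma and was not well above background in HF plasma, at least 274-fold lower. Its spot in control whole blood, at 13.76, was flagged as an outlier, and it had 10.40 in HF whole blood. All 7 exons had thus a lower level in both HF blood arrays than in their controls. In heart the log2 fold changes of the 7 ran from -2.22 for MM9LINCRNAEXON11020+ to -0.18 for MM9LINCRNAEXON11022+, and MM9LINCRNAEXON11021+ was the other one lower by at least 2-fold, with 9.14 and 7.70. On the - strand of the same exons, MM9LINCRNAEXON11019- had 7.87 and 7.86 in control whole blood and control plasma and was not well above background in HF whole blood or HF plasma, at least 6.40-fold and 5.59-fold lower. Among the blood arrays, MM9LINCRNAEXON11017- and MM9LINCRNAEXON11018- were likewise detected on the control ones alone. The bounds of their falls were 2.42-fold and 2.71-fold in whole blood, and 2.71-fold and 1.85-fold in plasma. MM9LINCRNAEXON11020- stayed within 2-fold, at 8.54 and 7.61 in control and HF whole blood and 8.96 and 9.55 in plasma. MM9LINCRNAEXON11022- was also within 2-fold in whole blood (-0.26), and the bound of its fall in plasma was 1.86-fold. MM9LINCRNAEXON11021- and MM9LINCRNAEXON11023- gave no bound in either. The matched mRNAs of B cells and platelets and 3 of the 4 erythroid ones had lower levels in both HF blood arrays. Of these, Gp1bb, Hba-a1 and Hbb-b1 were within 2-fold in whole blood. The other matched mRNAs did not have lower levels in both. The 4 neutrophil mRNAs were higher in both, by 4.14 to 8.29 in whole blood and by 2.16 to 7.63 in plasma. Cardiomyocyte mRNAs and Cd3e of T cells had positive values in whole blood. In plasma Myh6 had 0.02 and Cd3e 0.08, while Tnni3, Actc1 and Nppa were not well above background on either array. Tnnt2 was well above background in control plasma alone and Nppb in HF plasma alone. Hba-a2, also erythroid, and the fibroblast mRNAs had positive values in whole blood and negative ones in plasma. Of the fibroblast mRNAs, Col3a1 was not well above background on either plasma array, and Col1a2 and Lum were not in HF plasma. The log2 fold changes in whole blood and plasma were -4.13 and -6.21 for Cd79b, and -0.44 and -1.53 for Gp1bb and -1.21 and -7.21 for Gp5 of platelets. The erythroid mRNA Alas2 had -2.39 and -10.04, while Hba-a1 and Hbb-b1 had -0.23 and -0.21 in whole blood and -4.05 and -9.88 in plasma. Their part in the levels of this stretch was not tested.

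**Figure D5:**
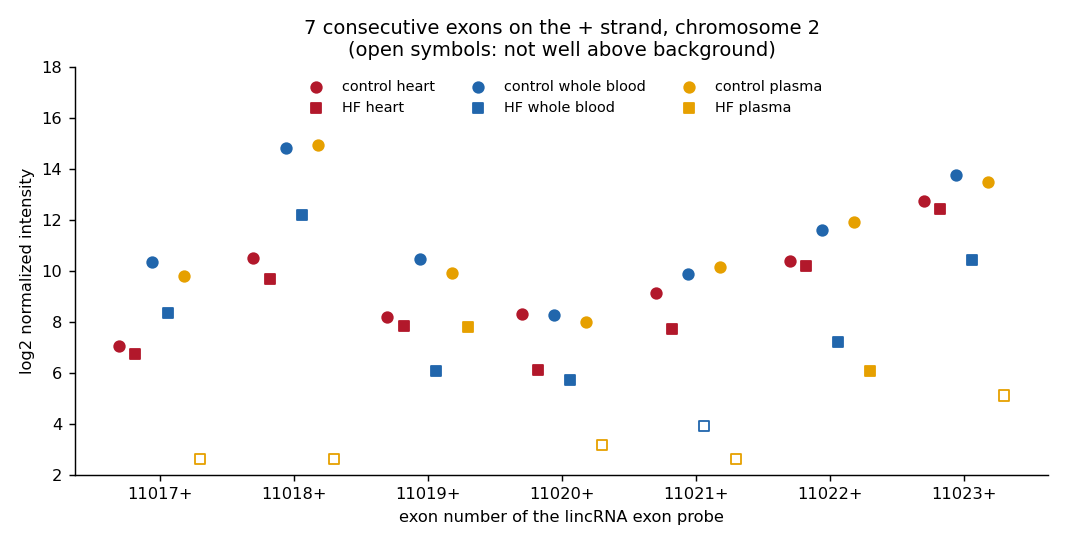
Levels (log2 normalized intensity) of 7 consecutive lincRNA exon probes of the + strand of chromosome 2 on the 6 arrays, with circles for control, squares for HF, and open symbols where the spot was not well above background. In every exon both HF blood arrays lie below their controls, while the heart arrays differ less, by a log2 fold change of -2.22 to -0.18.

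In plasma the longest run was 3 exons on the + strand of chromosome 8, and in heart no run exceeded 2 exons. MM9LINCRNAEXON10230+, from 119780402 to 119780917, had 11.46 and 13.57 in control and HF plasma, 11.50 and 11.97 in whole blood, and 11.64 and 10.60 in heart. MM9LINCRNAEXON10231+ had 8.11 and 13.72 in plasma, 8.35 and 7.95 in whole blood, and 7.12 and 6.56 in heart. MM9LINCRNAEXON10232+ had 9.12 and 10.53 in plasma, 7.31 and 8.99 in whole blood, and 6.35 and 6.04 in heart. The log2 fold changes in plasma were 2.11, 5.62 and 1.42 with errors of 0.20 to 0.21, so the middle exon changed far more than its neighbours. The - strand of exon 10231 was lower in HF plasma, with 6.52 and 5.43 in MM9LINCRNAEXON10231-. In heart, MM9LINCRNAEXON11148- had 8.61 and 6.21 and MM9LINCRNAEXON11149- had 6.77 and 5.03, with log2 fold changes of -2.40 and -1.74, the latter -0.76 with normexp. In blood these neighbours parted, since MM9LINCRNAEXON11148- had 8.91 and 11.71 in control and HF plasma and MM9LINCRNAEXON11149- was not well above background on any blood array.

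Across tissues, exons changed in heart and plasma mostly had opposite signs, while those changed in heart and whole blood mostly had the same sign. Of the 473 lincRNA exons detected on both heart and both whole blood arrays, 92 were changed at least 2-fold in both tissues, 65 of them lower in both, 6 higher in both, 17 lower in heart and higher in whole blood and 4 the other way. The signs were opposite in 22.8% of the 92, against 25.8% of the 1425 probes of the whole array so changed. Of 456 exons detected on the heart and plasma arrays, 90 were changed in both, and 66 of these were lower in HF heart and higher in HF plasma, 13 lower in both, 6 higher in both and 5 higher in heart and lower in plasma. Opposite signs made up 78.9% of these, and lower in heart with higher in plasma 73.3%, against 72.6% and 55.9% of the 1326 such probes of the whole array. Of 498 exons detected on all 4 blood and plasma arrays, 120 were changed in both, with 34 higher and 29 lower in both, 36 lower in whole blood and higher in plasma and 21 the other way, and so opposite in 47.5% against 44.1% over all probes. The tissues have no array in common, but they share scans and may share mice.

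On all 6 arrays 401 lincRNA exons were detected, and 37 of them (9.23%) were changed at least 2-fold in all 3 tissues, beside 7.27% of the 7527 probes of the whole array detected on all 6. Another 54 were within 2-fold in every tissue. Of the 37, 32 were lower in HF heart, and 25 of these were higher in HF plasma. The most frequent pattern was lower in heart and whole blood and higher in plasma, in 16 exons, followed by lower in heart and higher in whole blood and plasma in 9, and lower in all 3 in 6. The patterns of the 547 probes of the whole array so changed are not given here. These counts therefore do not set the lincRNA exons apart from the array.

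Exon 10032, on chromosome X, had the widest change among these in its least changed tissue. MM9LINCRNAEXON10032+ had levels of 8.93 and 6.38 in control and HF heart, 7.64 and 9.95 in whole blood, and 7.84 and 11.22 in plasma, with log2 fold changes of -2.55, 2.31 and 3.38 and errors of 0.21 to 0.22. The opposite strand, MM9LINCRNAEXON10032-, was detected in HF heart at 5.98 and not in control heart, at least 5.34-fold higher in HF. In plasma it was detected in control alone, at 5.49, and was at least 1.08-fold lower in HF. It was not detected in whole blood. MM9LINCRNAEXON10241+, on chromosome 8 from 122819320 to 122819449, had 8.27 and 9.85 in heart, 11.71 and 13.75 in whole blood, and 12.0 and 7.05 in plasma, higher in HF heart and whole blood and lower in HF plasma, with log2 fold changes of 1.58, 2.04 and -4.95. The value in whole blood was 0.83 when scaled by the 75th percentile, under 2-fold. MM9LINCRNAEXON12118+ was lower in HF in every tissue by a like amount, with 7.60 and 6.08 in heart, 8.14 and 6.51 in whole blood, and 8.73 and 6.95 in plasma, though with normexp its changes in heart and whole blood, -0.94 and -0.99, fell just short of 2-fold. MM9LINCRNAEXON11814- was lower in all of them as well, with 10.27 and 8.69 in heart, 12.91 and 9.96 in whole blood, and 13.47 and 12.02 in plasma.

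The other 4 exons with the widest changes in all tissues shared the most frequent pattern. MM9LINCRNAEXON10296+ had 8.68 and 7.16 in control and HF heart, 11.74 and 9.14 in whole blood, and 11.84 and 13.73 in plasma. MM9LINCRNAEXON10494- had 9.19 and 7.67 in heart, 11.16 and 9.29 in whole blood, and 11.07 and 12.74 in plasma. MM9LINCRNAEXON10894- had 6.78 and 5.26 in heart, 10.84 and 7.54 in whole blood, and 9.14 and 10.84 in plasma. All were lower in HF heart and HF whole blood and higher in HF plasma, and so was MM9LINCRNAEXON10213-, which had 6.98 and 5.36 in heart, 9.0 and 7.56 in whole blood, and 9.08 and 11.66 in plasma. Their log2 fold changes ran from -1.62 to -1.52 in heart, from -3.30 to -1.43 in whole blood and from 1.67 to 2.58 in plasma. With normexp, the heart values of MM9LINCRNAEXON10894- and MM9LINCRNAEXON10213- were -0.64 and -0.90, under 2-fold. The opposite strands of 3 of them were not well above background on any array, while MM9LINCRNAEXON10894+ was detected on all 6 arrays and had 8.60 and 12.17 in control and HF plasma.

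A group of 151 lincRNA exons (4.37%) was detected on both heart arrays and not well above background on any blood or plasma array. Over the whole array, 4389 of the 59729 probes had this pattern, a larger share. By the lower bound, 24 of them were at least 2-fold higher in both hearts than on any of the 4 other arrays, and 23.4% of all probes with this pattern were. MM9LINCRNAEXON12016+ had 9.56 and 9.18 in control and HF heart, at least 10.5-fold above blood and plasma. MM9LINCRNAEXON11996+ had 9.02 and 9.21, at least 9.49-fold above, and its opposite strand was also detected in the heart alone, at 5.44 and 5.30. MM9LINCRNAEXON10609- had 8.75 and 8.94, at least 7.84-fold above, and MM9LINCRNAEXON11501- had 9.64 and 8.38, at least 6.09-fold above. Of these exons only MM9LINCRNAEXON11501- was changed at least 2-fold in HF heart, with a log2 fold change there of -1.26 (error 0.20).

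The reverse pattern, detected on all 4 blood and plasma arrays and not well above background in heart, was found in 15 lincRNA exons (0.434%). Over the whole array, 225 of the 59729 probes had it. Of these, 8 were at least 2-fold higher by the bound, and 73.8% of all probes with this pattern were. MM9LINCRNAEXON10007+ had 7.47 and 7.80 in control and HF whole blood and 7.79 and 8.04 in plasma, at least 6.73-fold above heart. MM9LINCRNAEXON11354- had 7.45 and 9.30 in whole blood and 7.65 and 7.72 in plasma, at least 6.67-fold above heart, with a log2 fold change in whole blood of 1.84 (error 0.23). MM9LINCRNAEXON10239+ was at least 5.16-fold above heart. MM9LINCRNAEXON10405- had 9.07 and 9.28 in whole blood and 7.64 and 7.05 in plasma, at least 5.02-fold above heart. The levels of MM9LINCRNAEXON10007+ lay within 2-fold of each other on all 4 arrays, and those of MM9LINCRNAEXON11354- did so on all but HF whole blood.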

How the data were processed

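One-colour Arraystar Mouse LncRNA Microarrays v2.0 measured Cy3-labelled RNA, purified after removal of rRNA and labelled with random primers, in 6 mixtures. The authors read the images with Agilent Feature Extraction 11.0.1.1, and the deposited scanner tables hold intensities per spot (processed signals, already background-corrected within the array, their errors, and median signals) with flags of 0 or 1 for quality. The series-wide file has these processed intensities again, with 0 of 62515 rows different on any array. The authors normalized by quantiles in their own analysis.

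Here, log2 processed signals of 61194 spots were averaged per probe and quantile normalized over the 6 arrays (Python 3.11.15, pandas 2.3.3, scipy 1.17.1; limma 3.58.1 for normexp with an offset of 50). Probes were filtered on detection and called at 2-fold after the methods of the study, with 1 array per condition and so without a test. The steps were tested on simulated data. Named probes are, per tissue, 4 with the largest rises and 4 with the largest falls, 3 strand pairs with the largest opposite changes and the longest run of consecutive exons, with up to 8 probes changed in all 3 tissues and, for each direction, 4 probes of heart or of blood only. The members, lists and rules were chosen with earlier results of these data known. mRNA markers of 9 tissues or cell types were matched by the study's list of coding probes, a partial copy here. Alternatives were 75th percentile scaling, quantiles within each tissue, normexp, no detection filter, detection on all 6 arrays, a 4-fold threshold and the weaker flag of a positive and significant signal. Coordinates on mm9 were copied from the study's lists of changed LncRNAs. Sequences of the probes were not used here. Precision is limited by the number of arrays.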

Additional observations from a re-analysis of the deposited data

Results flagged for a closer look

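The results listed here went in opposite directions in 2 tissues, by at least 2-fold in each and on arrays that all detected the probe. With 1 array per condition the differences between tissues were not tested, and the scan differs between HF and control in whole blood and plasma. Each value is the log2 fold change of the first tissue named minus that of the second.

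Between heart and whole blood, MM9LINCRNAEXON11792+ differed by -4.68 and MM9LINCRNAEXON10032+ by -4.86, both lower in HF heart and higher in HF whole blood. MM9LINCRNAEXON11364+ differed by -2.94 in the same order, and MM9LINCRNAEXON10974- by 2.15 in the other. Scaled by the 75th percentile, the whole blood values of MM9LINCRNAEXON11792+ and MM9LINCRNAEXON11364+ were 0.50 and 0.06, under 2-fold.

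Between heart and plasma, most of the listed probes were lower in HF heart and higher in HF plasma. The differences were -5.93 for MM9LINCRNAEXON10032+, -5.20 for MM9LINCRNAEXON11148-, -4.20 for MM9LINCRNAEXON10213-, -3.41 for MM9LINCRNAEXON10296+, -3.22 for MM9LINCRNAEXON10894-, -3.19 for MM9LINCRNAEXON10494-, -3.15 for MM9LINCRNAEXON10230+ and -3.08 for MM9LINCRNAEXON11364+. MM9LINCRNAEXON11446+ belonged to the same order with -2.37. With normexp the heart values fell under 2-fold for MM9LINCRNAEXON10213- (-0.90), MM9LINCRNAEXON10894- (-0.64), MM9LINCRNAEXON11446+ (-0.53) and MM9LINCRNAEXON10230+ (-0.91), the last also with 75th percentile scaling (-0.63) and quantiles within each tissue (-0.99). The opposite order was that of MM9LINCRNAEXON10974- with 5.64 and of MM9LINCRNAEXON10241+ with 6.53.

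Between whole blood and plasma, the probes higher in HF whole blood and lower in HF plasma were MM9LINCRNAEXON11901- with 8.76, MM9LINCRNAEXON10241+ with 6.99 and MM9LINCRNAEXON10239+ with 6.03. Scaled by the 75th percentile, MM9LINCRNAEXON10241+ had 0.83 in whole blood. The reverse was found for MM9LINCRNAEXON12061- with -7.19, MM9LINCRNAEXON10894- with -5.00, MM9LINCRNAEXON10296+ with -4.49, MM9LINCRNAEXON10213- with -4.01 and MM9LINCRNAEXON10494- with -3.54.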

How the results depend on the processing

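The medians of the log2 fold changes kept their sign under 75th percentile scaling, quantiles within each tissue and normexp. That of whole blood moved from -0.16 to -0.40 under 75th percentile scaling. With that scaling the median of all probes was 0.50 in heart, -0.43 in whole blood and 0.37 in plasma. With quantile normalization over the 6 arrays it was 0.02, 0.0 and 0.01. Normexp left 27 probes higher and 92 lower in HF heart, and opposite changes of the strands in 1 exon in heart (10974, not 11446), and 6 in plasma. Without a detection filter, 189 probes were higher and 395 lower in heart, 618 and 711 in whole blood, and 847 and 564 in plasma. Over probes detected on all 6 arrays, 8 were higher and 134 lower in heart, 78 and 118 in whole blood, and 140 and 91 in plasma, fewer probes being counted. At a 4-fold threshold 13 were higher and 12 lower in heart, 46 and 76 in whole blood, and 159 and 64 in plasma. The lincRNA exons lower in HF heart thus no longer outnumbered the higher ones. For the normexp, filter and threshold counts, the shares over all probes are not given here. These counts therefore do not show how the lincRNA exons stood beside the array. With the weaker flag, 2220 and 1598 probes were detected in control and HF heart, 1620 and 1763 in whole blood, and 2067 and 1968 in plasma. Apart from what the filters do by construction, the cause was not tested. The fold changes of the named probes, recomputed under the 3 normalizations after the data were seen, gave 144 values each, and 74 lay within the spot error of the reported value with 75th percentile scaling, 128 with quantiles within each tissue and 67 with normexp. None of the 93 at least 2-fold changed turned its sign, but 4 fell under 2-fold with 75th percentile scaling, 1 with quantiles within each tissue and 12 with normexp. No paired analysis was possible because each condition has a single array, and no array could be left out. Bounds for dim probes rest on the lowest detected level, which was highest in control whole blood (5.78).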
